A study of Penicillium oxalicum with 9 samples.

Results

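Cel7A-2 (PDE_07945) and Cel6A (PDE_07124) are the pair of cellobiohydrolases followed here through 9 libraries of Penicillium oxalicum, a filamentous fungus known for secreting enzymes that break down plant cell walls. They were taken by gene identifier and are 2 of the 9907 genes in the deposited table, where their descriptions read cellobiohydrolase and cellobiohydrolase II. The 9 libraries came from the wild type strain 114-2, a strain with clrB deleted and a strain with rcoA deleted, with 3 libraries of each. All were prepared from mycelia that had been pre-grown for 22 h at 30 °C on 2% glucose, washed, and kept for 24 h in a mineral medium whose carbon came from wheat bran (1%) and cellulose (1%), so every strain was on an inducing carbon source and no library on glucose alone was compared. How many independent transformants each deletion strain stands for, and whether replicates are separate cultures, is not in the labels; the p-values therefore describe library-to-library spread, some of which may be technical.

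Cellobiohydrolases are processive enzymes that thread a cellulose chain through a tunnel and release the disaccharide cellobiose from its end. Enzymes of the Cel7A type start from the reducing end of the chain and those of the Cel6A type from the non-reducing end, so the pair works in opposite directions. Endoglucanases and oxidative monooxygenases open new chain ends for them, beta-glucosidases split the cellobiose into glucose, and cellodextrin transporters import it. In fungi grown on cellulose their genes are induced by transcriptional activators such as ClrB and XlnR and held down by the carbon catabolite repressor CreA, while RcoA belongs to the Tup1 family of corepressors.

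The values are FPKM, a fragment count scaled by transcript length and by the number of mapped fragments, as the authors computed them. Group values are the mean ± SD with n = 3. The summed FPKM lay between 776855 and 820648 per library, and read depth is unknown because no counts were given. Within a strain, log2 values of different libraries correlated across tested genes at 0.984 to 0.993 in the wild type and rcoA deletion. In the clrB deletion, replicate 2 stood apart, at 0.946 and 0.957 with the other libraries, which correlated at 0.991 with each other. The limma changes of Cel7A-2 and Cel6A are therefore given with and without clrB deletion replicate 2, as are other results where stated.

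The deleted regulator served as a check of the labels. The clrB transcript (PDE_05999) read 191, 200 and 163 FPKM in the wild type and 0.11, 0.11 and 0.08 in the clrB deletion. In the rcoA deletion it read 57.7, 62.3 and 69.8. PDE_01024, described as TUP1, stood at 67.8 ± 2.64 FPKM in the wild type and 2.71 ± 0.651 in the rcoA deletion, although no label ties rcoA to that identifier.

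Cel7A-2 was among the most abundant transcripts of the wild type. It read 7355, 7377 and 5499 FPKM, which placed it 9th, 9th and 13th from the top of the table and gave it 0.697 to 0.95% of each library's summed FPKM. By group mean it ranked 10th, and the genes with the highest means were PDE_09832, PDE_09166 and PDE_00509, all hypothetical proteins in the deposited description, at 15252, 13832 and 12411 FPKM. Ranks compare different genes and so depend on the length scaling in FPKM, whereas the labels describe a library of short tags from a fixed cutting site.

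In the clrB deletion Cel7A-2 read 260, 812 and 342 FPKM, against 1220, 1334 and 1537 in the rcoA deletion. No library of one strain overlapped with those of another, and the strains were ordered wild type, rcoA deletion, clrB deletion. The share of all genes without overlap between strains was not counted, so a lack of overlap alone does not single out either cellobiohydrolase. The mean of the clrB deletion, 471 ± 298, was 6.98% of the wild type mean of 6744 ± 1078, and that of the rcoA deletion, 1364 ± 161, was 20.2% of it. The samples were whole mycelium, so fewer expressing cells and less transcript per cell cannot be told apart. Even in the clrB deletion the transcript stayed above 95.3 to 98.9% of the genes in the table.

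Cel6A started from a level not far below Cel7A-2 and ended much lower. The wild type libraries read 4100, 4030 and 3015 FPKM, ranks 19, 20 and 27 from the top. The clrB deletion libraries read 13.5, 11.4 and 9.64 FPKM, ranks 6596, 6870 and 7216, which is above 27.1 to 33.4% of the genes. The rcoA deletion libraries read 46.9, 62.8 and 90.8, ranks 2684, 2078 and 1470. The order of the strains was that of Cel7A-2, again with no overlap, but the means of 11.5 ± 1.93 with clrB deleted and 66.8 ± 22.2 with rcoA deleted were 0.31% and 1.80% of the wild type mean of 3715 ± 607.

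**Figure D1:**
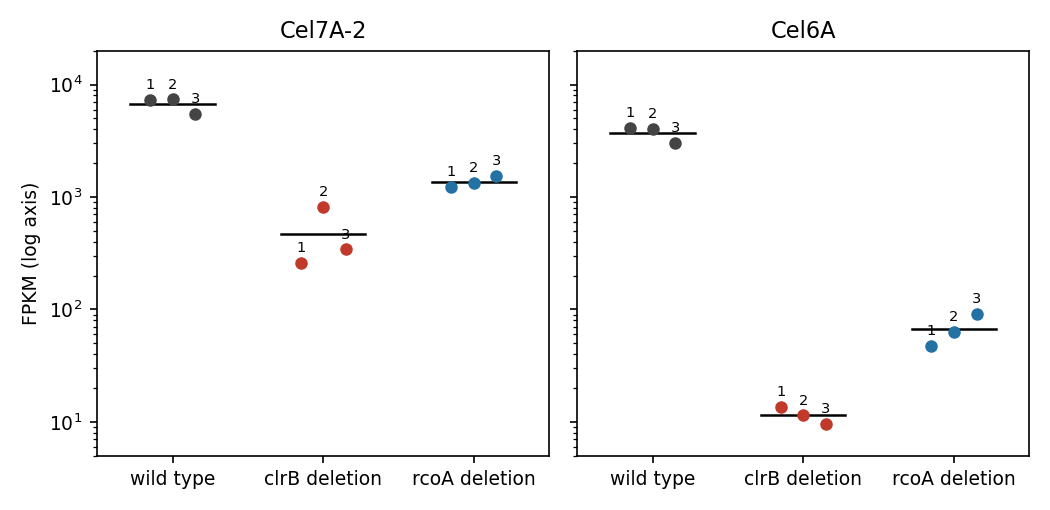
FPKM on a log axis of Cel7A-2 (left) and Cel6A (right) in each library, numbered by replicate, with the group mean as a horizontal line. Both genes were highest in the wild type and lowest in the clrB deletion, with 260 to 812 FPKM for Cel7A-2 and 9.64 to 13.5 FPKM for Cel6A in the latter.

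Each step of that order was tested with limma on log2(FPKM + 1), in a fit over all 9097 genes with a mean of at least 1 FPKM and with Benjamini-Hochberg adjustment. Both genes fell in both deletions. In the clrB deletion Cel7A-2 changed by -4.00 on the log2 scale (95% confidence interval -4.83 to -3.18, limma adjusted p = 0.000229) and Cel6A by -8.21 (-8.74 to -7.69, adjusted p = 1.38e-07). As ratios of mean FPKM these were 14.3-fold and 323-fold lower. Of all tested genes 8.32% were called lower in this comparison. Cel6A had the second lowest log2 change of the 9097 genes and Cel7A-2 the 20th lowest. Without clrB deletion replicate 2 the change of Cel7A-2 was -4.48, or 22.4-fold lower (adjusted p = 8.91e-07), and that of Cel6A stayed at -8.21.

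In the rcoA deletion the log2 change was -2.30 for Cel7A-2 (95% confidence interval -3.12 to -1.47, limma adjusted p = 0.000493) and -5.81 for Cel6A (-6.34 to -5.29, adjusted p = 1.35e-07). The corresponding ratios of means were 4.95-fold and 55.6-fold lower. The background here was larger, with 34.1% of tested genes called lower. Cel6A ranked 28th and Cel7A-2 393rd from the lowest change, so 4.32% of tested genes fell at least as far as Cel7A-2. The fit pools the spread of all strains, so the intervals also rest on clrB deletion replicate 2. Without it the interval of Cel7A-2 was -2.685 to -1.912 (limma adjusted p = 2.77e-06), and that of Cel6A stayed at -6.34 to -5.29.

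The clrB deletion lay below the rcoA deletion for both genes. For Cel7A-2 the log2 difference was -1.70 (95% confidence interval -2.53 to -0.88, limma adjusted p = 0.00325), and for Cel6A it was -2.40 (-2.93 to -1.87, adjusted p = 2.76e-05). Of all tested genes 24.9% were called lower in the clrB deletion than in the rcoA deletion. As ratios of means, Cel7A-2 was 2.90-fold and Cel6A 5.80-fold lower. Without clrB deletion replicate 2, Cel7A-2 was 4.54-fold lower (log2 difference -2.19), and Cel6A 5.78-fold. All 3 comparisons share libraries in pairs, so they are not independent of each other.

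Cel6A fell further than Cel7A-2 within the same libraries. The difference log2(FPKM + 1) of Cel6A minus that of Cel7A-2 was computed in each library, where scaling of the library and the length of either gene cancel between strains apart from the added 1. In the wild type it was -0.84, -0.87 and -0.87. With clrB deleted it was -4.17, -6.03 and -5.01, and with rcoA deleted -4.67, -4.39 and -4.07. Wild type libraries thus held 1.79 to 1.83 times as much Cel7A-2 FPKM as Cel6A FPKM. The ratio was 16.9 to 26.0 in the rcoA deletion. In the clrB deletion it was 19.2 to 71.2, or 19.2 to 35.4 without replicate 2.

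The strains differed in this ratio by an exact permutation test of the F statistic over the 9 libraries (p = 0.0107, where the smallest possible was 0.00357). Without clrB deletion replicate 2 this permutation test gave p = 0.0214. The ratio was lower by 4.21 on the log2 scale in the clrB deletion than in the wild type. That change was -3.73 without clrB deletion replicate 2. In the rcoA deletion the ratio was lower by 3.51, with no overlap in either case. Both two-sided exact permutation tests gave p = 0.1, which is the smallest that 3 libraries against 3 can give. Between the deletions the ratio differed by -0.70 on the log2 scale, less than the SD of 0.935 between the clrB deletion libraries, and the libraries overlapped (exact permutation p = 0.3). That difference was -0.21 without clrB deletion replicate 2 (exact permutation p = 0.6). With replicate 1 of that strain left out instead it was -1.15, the libraries no longer overlapped, and the exact permutation p was 0.1.

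**Figure D2:**
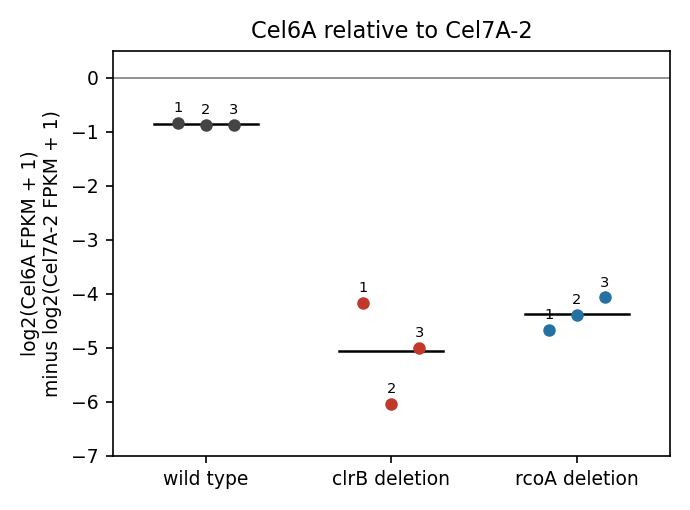
Difference between log2(FPKM + 1) of Cel6A and of Cel7A-2 in each library, numbered by replicate, with the strain mean as a line. Wild type libraries lie together near -0.86, and the libraries of both deletions lie between -6.03 and -4.07.

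In the wild type and in the rcoA deletion, replicate 3 stood apart in the same direction for both genes. In the wild type, replicate 3 was the lowest library for both, at 0.747 times the mean of replicates 1 and 2 for Cel7A-2 and 0.742 times for Cel6A. The clrB transcript was also lowest there, at 0.834 times. In the rcoA deletion, replicate 3 was the highest library for Cel7A-2, Cel6A and the clrB transcript alike. The repressor CreA had the same order, lowest in wild type replicate 3 (303 FPKM) and highest in rcoA deletion replicate 3 (785 FPKM). XlnR was also lowest in wild type replicate 3 (59.1 FPKM), but was highest in rcoA deletion replicate 1 (32.5 FPKM). The share of all genes with this order was not counted, and a link to clrB was not tested.

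The pair parted in the clrB deletion, where replicate 2 read 2.70 times the mean of replicates 1 and 3 for Cel7A-2, but 0.985 times for Cel6A. On FPKM + 1, 3.69% of tested genes were at least 2-fold higher in replicate 2, and 98.3% of tested genes lay below Cel7A-2 in this ratio against 54.8% below Cel6A. Genes of the endoglucanase and cellodextrin transporter lists divided likewise. In the cellobiohydrolase list Cel7A-2 was the only 1 of 6 genes at least 2-fold higher in replicate 2. The next, PDE_02102, lay just under that cut, at 1.87 times. Of 30 tested beta-glucosidase genes 3 were (10%), against 3.69% of all tested genes. Among the 757 genes called lower in the clrB deletion the share was 8.85%. In this library 8 of 16 genes of the endoglucanase list were at least 2-fold higher. Among them were Cel7B (PDE_07929, 2.64 times) and the GH45 protein PDE_07928 (3.87 times). Others were listed by an endoglucanase orthology entry but described otherwise. These were an alpha-L-arabinofuranosidase (PDE_00016, 3.51 times) and the putative cellulose monooxygenases PDE_00698 (2.88 times) and PDE_01261 (3.38 times). The endoglucanase PDE_09226 (0.866 times) and the monooxygenase Cel61A (PDE_05633, 0.640 times) were not 2-fold higher. The monooxygenase PDE_06768, outside that list, was not either (0.789 times), so monooxygenases lay on both sides. Of the cellodextrin transporters, CdtD (PDE_00753) was 3.14 times higher and cdt-c (PDE_00607) was level, at 0.991 times.

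A sporulation regulator also differed in this library. BrlA (PDE_00087), the factor that starts conidium formation in related fungi, read 149, 33.4 and 121 FPKM in the clrB deletion, so replicate 2 was the lowest where it was the highest for Cel7A-2. It read 18.2, 27.9 and 28.5 in the wild type and 12.4 to 13.7 in the rcoA deletion. Against the wild type its log2 change in the clrB deletion was 1.76 (limma adjusted p = 0.0294), a call lost in 5 of 18 alternatives, and 2.41 without replicate 2. The other gene of the marker list, PDE_00079, also described as BrlA, had a mean of 0.99 FPKM in the wild type and fell under the minimum for testing. The part of these differences in the spread of Cel7A-2 was not tested.

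**Figure D3:**
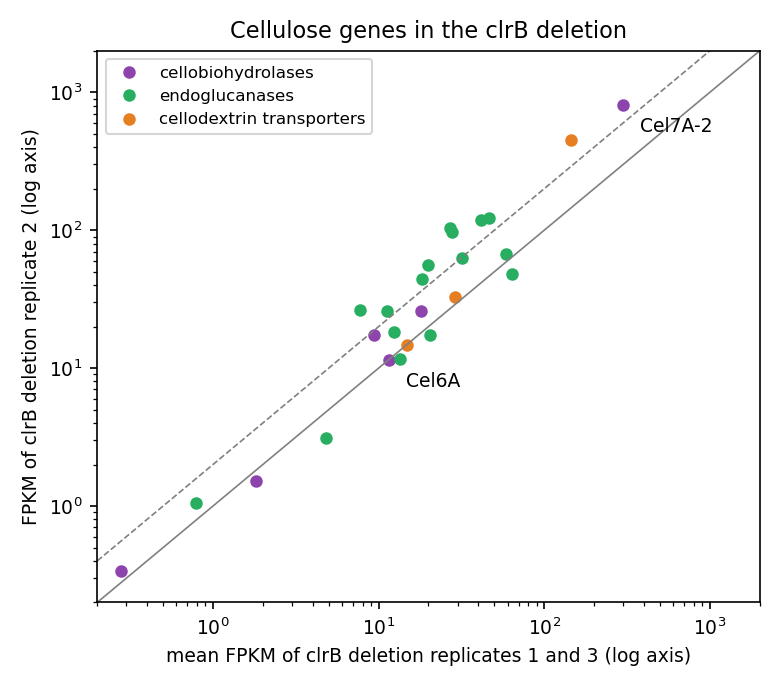
FPKM of clrB deletion replicate 2 (vertical) against the mean FPKM of replicates 1 and 3 (horizontal), both log axes. Points are genes of the cellobiohydrolase, endoglucanase and cellodextrin transporter lists. The solid line marks equal values and the dashed line a 2-fold higher value in replicate 2. Cel7A-2 lies above the dashed line at 812 against 301 FPKM, and Cel6A lies on the solid line at 11.4 against 11.6 FPKM.

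Besides this pair, 4 other genes carried a cellobiohydrolase description. PDE_02102, described as a fungal cellulose binding domain protein and by the orthology entry of Cel6A as a cellobiosidase, went from 1066 ± 55.9 FPKM in the wild type to 12.0 ± 4.99 with clrB deleted and 314 ± 27.6 with rcoA deleted. PDE_05445, an exo-cellobiohydrolase with the same orthology entry as Cel7A-2, went from 51.3 ± 4.16 to 1.72 ± 0.179 and 16.6 ± 6.19. PDE_00014, which carries endoglucanase and xylanase descriptions too, read 3.26 ± 0.430, 0.30 ± 0.078 and 0.577 ± 0.223. PDE_07947, described as a cellobiohydrolase B precursor but by orthology as a muconate cyclase, stood at 26.5 ± 6.83, 20.6 ± 4.74 and 20.5 ± 1.39 and was not called in any comparison (limma adjusted p = 0.231, 0.164 and 0.967).

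All 6 genes of the list were tested, and 5 were called lower in each deletion against the wild type, where 8.32% of all tested genes were lower with clrB deleted but 34.1% with rcoA deleted. The log2 changes of all 6 were negative. The median log2 change of the list was -4.13 with clrB deleted and -1.69 with rcoA deleted, against 0.08 and -0.04 over all tested genes. Between the deletions 4 of the 6 were lower in the clrB deletion, against 24.9% of all tested genes, and PDE_00014 and PDE_07947 were not called. These counts were also found without clrB deletion replicate 2, when 13.4%, 37.3% and 25.2% of all tested genes were lower. Within the list Cel6A had the lowest log2 change in both deletions. PDE_05445, the gene with the orthology entry of Cel7A-2, was 29.9-fold lower in the clrB deletion and 3.09-fold lower in the rcoA deletion.

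**Figure D4:**
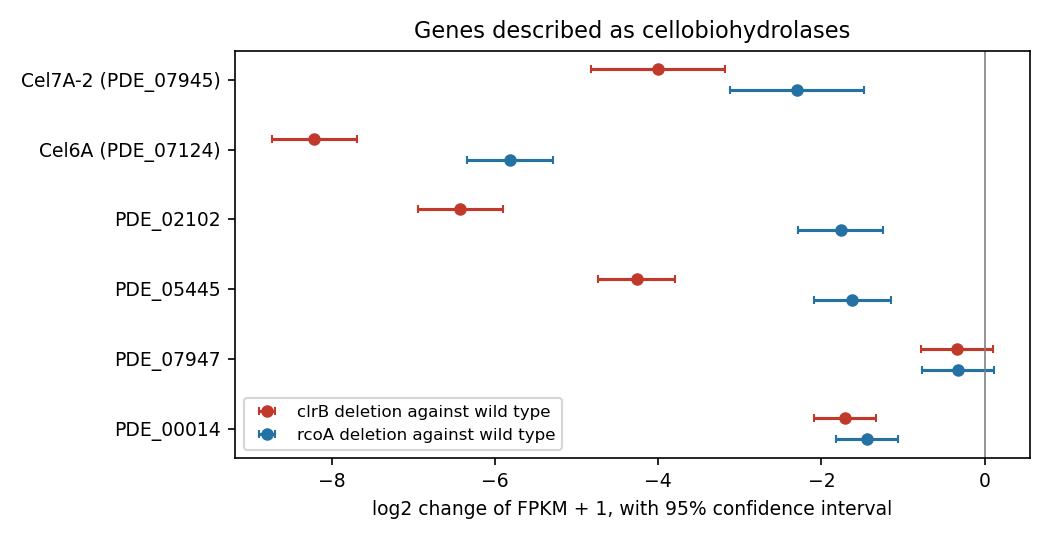
Log2 change of FPKM + 1 against the wild type, with 95% confidence intervals from limma, for the 6 genes with a cellobiohydrolase description, with clrB deleted (red) or rcoA deleted (blue). Cel6A has the lowest values, -8.21 and -5.81, and PDE_07947 has intervals that include 0 in both.

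The partners of the cellobiohydrolases were counted in the same way. Of 16 genes of the endoglucanase list, 12 fell and 1 rose in the clrB deletion. In the rcoA deletion 9 fell and 5 rose. The list includes PDE_00016, PDE_00698 and PDE_01261, which are described as other enzymes. Over all tested genes 8.32% fell and 13.5% rose with clrB deleted, and 34.1% fell and 30.4% rose with rcoA deleted. The share of the list that rose in the rcoA deletion was thus near that of all genes. The median log2 changes were -2.61 and -0.84, against 0.08 and -0.04 over all tested genes. Without clrB deletion replicate 2, 14 fell and 1 rose in the clrB deletion and 10 fell and 5 rose in the rcoA deletion; the shares over all tested genes were then 13.4% lower and 24.2% higher, and 37.3% lower and 33% higher. The members with the highest wild type means were Cel61A, a monooxygenase that carries an endoglucanase orthology entry, and PDE_09226. Cel61A went from 4244 ± 316 FPKM to 4.25 ± 1.05 with clrB deleted and 389 ± 163 with rcoA deleted. For PDE_09226 the means were 3057 ± 722, 12.9 ± 1.95 and 213 ± 68.5.

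Of the beta-glucosidase list 30 of 32 genes were tested. In the clrB deletion 8 fell and 4 rose, and in the rcoA deletion 16 fell and 5 rose, with median log2 changes of -0.18 and -0.64. The share that rose in the clrB deletion was near the 13.5% of all tested genes, while 8.32% of all genes fell there, and in the rcoA deletion 34.1% of all genes fell and 30.4% rose. Leaving out single libraries moved the count in the clrB deletion between 5 lower genes, without clrB deletion replicate 3, and 11, without replicate 2. Lower calls over all tested genes moved the same way, with 335 without replicate 3 and 1214 without replicate 2. The word search also took in glucan 1,3-beta-glucosidases of the cell wall. Among 13 tested genes with a beta-glucosidase orthology entry, a subset drawn after the values were seen, 5 fell in the clrB deletion (8.32% of all tested genes), and 7 fell and 1 rose in the rcoA deletion (34.1% and 30.4%). PDE_00579, a glycoside hydrolase family 1 protein with that entry and the highest wild type mean of the list, went from 991 ± 218 FPKM to 7.93 ± 1.99 and 337 ± 39.5. The next, PDE_06124, has a glucan 1,3-beta-glucosidase orthology entry and is described as a peptidoglycan binding domain protein. It rose from 883 ± 40.3 FPKM to 1574 ± 101 in the clrB deletion (limma adjusted p = 0.0112) and fell to 532 ± 123 in the rcoA deletion (adjusted p = 0.00362).

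Of 3 cellodextrin transporters, 2 fell in each deletion, against 8.32% of all tested genes with clrB deleted and 34.1% with rcoA deleted. In the clrB deletion these were cdt-c, from 2603 ± 553 to 14.8 ± 0.214 FPKM, and CdtD, from 1040 ± 238 to 247 ± 179. In the rcoA deletion they were cdt-c, at 1635 ± 174 FPKM, and cdt-g (PDE_09395), from 29.0 ± 1.13 to 21.2 ± 2.19, while CdtD, at 535 ± 23.7, was not called (limma adjusted p = 0.0655). Without clrB deletion replicate 2 it was called there as well (adjusted p = 0.000606). cdt-c kept 62.8% of its wild type mean in the rcoA deletion, against 1.80% for Cel6A. The oxidative cellulase list held 3 genes beyond those already in the endoglucanase list. Of these 2, PDE_09633 among them, had matched through letters of an accession and are described as other proteins. The third, the monooxygenase PDE_06768, stood at 10.7 ± 0.212 FPKM in the wild type, 7.39 ± 1.76 with clrB deleted and 1.36 ± 0.450 with rcoA deleted. Over the list limma called 0 genes in the clrB deletion (1, PDE_06768, had an unadjusted p under 0.05), with 1 lower and 1 higher in the rcoA deletion. Over all tested genes 8.32% were lower and 13.5% higher in the former, and 34.1% and 30.4% in the latter. With 3 genes, 2 of them matched through accession letters, these counts do not describe oxidative cellulases. Of 4 genes described as cellulose monooxygenases, a set drawn after the values were seen that holds Cel61A and PDE_06768, 2 fell with clrB deleted (8.32% of all tested genes) and 4 with rcoA deleted (34.1%). The first count was 3 without clrB deletion replicate 2.

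The regulators XlnR and CreA changed by at most 1.21 on the log2 scale. XlnR (PDE_07674), an activator of xylanase and cellulase genes, stood at 69.0 ± 8.57 FPKM in the wild type, 49.4 ± 8.55 with clrB deleted and 31.9 ± 0.553 with rcoA deleted, and was called lower in both (limma adjusted p = 0.036 and 0.000116). The call in the clrB deletion was lost in 7 of 18 alternatives, each of them leaving out 1 library, with adjusted p up to 0.116. CreA (PDE_03168) stood at 335 ± 27.4, 391 ± 5.95 and 772 ± 16.5 and was called higher in the rcoA deletion (adjusted p = 8.69e-06). The clrB transcript fell by 1.53 on the log2 scale in the rcoA deletion (adjusted p = 3.17e-06), where Cel7A-2 fell by 2.30 and Cel6A fell by 5.81.

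To find the genes that behaved most like each cellobiohydrolase, profiles of log2(FPKM + 1) over the 9 libraries were set to 0 at each gene's wild type mean, and the root mean square difference between profiles was taken. Libraries of one strain share its level, so this measure mostly reads the strain means. The genes nearest to Cel7A-2 were a putative carbohydrate acetylesterase (PDE_05194), a GH10 xylanase (PDE_08094) and a putative feruloyl esterase (PDE_06649), at differences of 0.259, 0.27 and 0.305. PDE_04857 and PDE_06576, which carry sugar transporter orthology entries, followed at 0.5 and 0.522. By orthology PDE_04857 is also entered as a guanine deaminase, and PDE_06649 as a hercynylcysteine sulfoxide lyase. The median over tested genes was 2.76. These genes carry descriptions of hemicellulose breakdown and sugar uptake, and no other gene of the cellulose lists was among them.

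The acetylesterase PDE_05194 changed by -3.89 with clrB deleted and -2.54 with rcoA deleted on the log2 scale. The xylanase PDE_08094, which cuts the xylan backbone, changed by -4.24 and -2.56, and the feruloyl esterase PDE_06649, which frees ferulic acid from arabinoxylan, by -4.07 and -1.85. The corresponding values of Cel7A-2 were -4.00 and -2.30. Replicate 2 of the clrB deletion was high for these genes too: they read 2.03, 3.88 and 2.99 times the mean of the other replicates, as Cel7A-2 did with 2.70 times. Without that library 4 of the 5 nearest genes were the same, with a putative exo-beta-1,3-galactanase (PDE_01468) in place of PDE_06576. The changes of PDE_05194, PDE_08094 and PDE_06649 in the clrB deletion were then -4.20, -4.89 and -4.59, against -4.48 for Cel7A-2.

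The genes nearest to Cel6A were the endoglucanase PDE_09226, a putative cellulose monooxygenase (PDE_01261), the endoglucanase Cel5C (PDE_09969) and Cel61A, at 1.16, 1.32, 1.43 and 1.58. The fifth was clrB itself at 2.52, whose level in the clrB deletion is set by the deletion. The median over tested genes was 5.85, and these distances are larger than those around Cel7A-2. Without clrB deletion replicate 2 the GH45 protein PDE_07928 took the place of clrB and the other 4 genes were the same. In that library PDE_01261 and PDE_07928 read 3.38 and 3.87 times the mean of replicates 1 and 3. Cel6A read 0.985 times, and PDE_09226, Cel5C and Cel61A read 0.866, 0.857 and 0.640 times. Cel7A-2 ranked 16th in likeness to Cel6A, at 3.20, and Cel6A ranked 7947th in likeness to Cel7A-2. The measure takes in the size of a change as well as its direction. The median tested gene lay at 2.76 from Cel7A-2, nearer than Cel6A, although both cellobiohydrolases fell in both deletions with the same order of strains.

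The neighbours of Cel6A differed from it in how the deletions compared. Cel5C changed by -5.86 with clrB deleted and -5.07 with rcoA deleted, and PDE_01261 by -6.25 and -6.65, with no call between the deletions for the latter (limma adjusted p = 0.421). PDE_09226 changed by -7.76 and -3.86, and Cel61A by -9.68 and -3.53. The difference between the deletions was -0.79 for Cel5C, -3.90 for PDE_09226 and -6.15 for Cel61A, and that of Cel6A, -2.40, lay between those of Cel5C and PDE_09226.

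**Figure D5:**
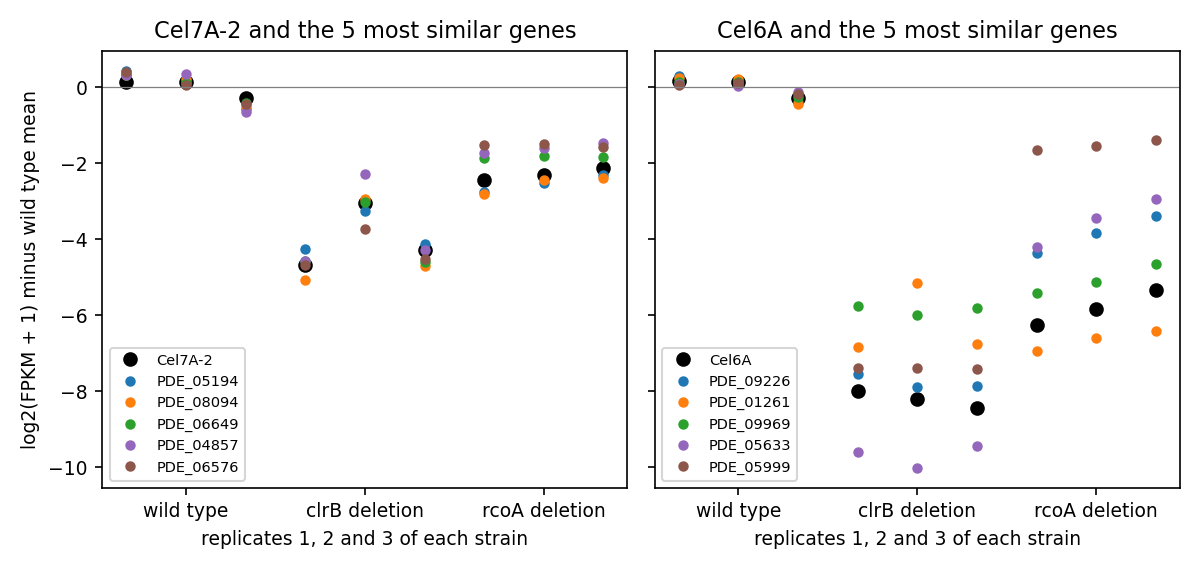
log2(FPKM + 1) minus the gene's wild type mean in the 9 libraries (replicates 1, 2 and 3 from left to right within a strain, an order without meaning) for Cel7A-2 (left) and Cel6A (right) in black, each with its 5 most similar genes in colour. The genes around Cel7A-2 share its higher value in clrB deletion replicate 2, as does PDE_01261 among those around Cel6A. The genes around Cel6A spread more widely, from 1.16 to 2.52 in root mean square difference.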

How the data were processed

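FPKM per gene were computed by the authors and deposited to 2 decimals in 1 table, per the file headers. Per the labels' protocols, oligo(dT)-selected RNA was made into cDNA and cut with NlaIII and MmeI into tags. Aligner, genome build, gene lengths and counting method: not given in the sources used here. A further 3 value columns were not used. The reference table (assembly ASM172317v3, 9964 genes) shares 0 of the 9907 identifiers, so no coordinates or sequences are given.

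Columns were matched to libraries through the labels. Genes with a mean of at least 1 FPKM over the 9 libraries (9097) entered a limma fit (version 3.58.1, R 4.3.3) of log2(FPKM + 1) that had an intensity trend and gave each strain its own mean. Two-sided p-values were Benjamini-Hochberg adjusted over all tested genes and called under 0.05. The added 1 understates changes of low genes. A fold of means is given where both means reach 1 FPKM. The code was tested on simulated data.

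Exact permutation tests over libraries served for the ratio of Cel6A to Cel7A-2. Lists are word searches in the deposited descriptions, each gene in the first list it matched. Genes named are both cellobiohydrolases, every gene of that list, the 2 highest in the wild type of each other enzyme or transporter list, 4 regulators, the 3 highest wild type genes and the 5 nearest profiles. A few more were chosen after their values were seen: PDE_00016, PDE_00079, PDE_00698, PDE_01468, cdt-g, Cel7B and PDE_07928. The genes and lists were chosen with earlier results of these data known. Alternatives changed the pseudocount, filter, scaling, trend, libraries and replicate block. Genes of one family may share tags, which was not tested.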

Additional observations from a re-analysis of the deposited data

How the results depend on the processing

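Each of the 6 tested changes of Cel7A-2 and Cel6A kept its direction and its call under all 19 alternatives run. The log2 change of Cel7A-2 lay between -4.48 and -3.66 in the clrB deletion, between -2.44 and -2.21 in the rcoA deletion, and between -2.19 and -1.36 between the deletions (highest limma adjusted p 0.0036, 0.00304 and 0.0144). For Cel6A these ranges were -8.36 to -7.43, -6.06 to -5.59 and -2.62 to -1.80 (highest 1.46e-05, 5.43e-06 and 0.000324). Replicate numbers did not pair the libraries: deviations of same-numbered libraries correlated at -0.161 to 0.341, over 0.1 in 2 of 9 pairs, and 7 of 18 comparisons were highest with the own number. With the replicate block the clrB changes stayed at -4.00 and -8.21 (limma adjusted p = 0.000892 and 1.46e-05), and 1725 genes were called in that comparison against 1987. That count was 1274 with both compared strains alone, 724 to 3409 with 1 library left out (724 without clrB deletion replicate 3, 3409 without replicate 2; leaving out wild type libraries gave 873 for replicate 1, 1075 for replicate 2 and 1283 for replicate 3). Counts for the other comparisons stayed within 1.5 times. The difference in the Cel6A to Cel7A-2 ratio between clrB deletion and wild type was -3.46 with a pseudocount of 10, and the test over 3 strains gave exact permutation p from 0.00357 to 0.0321. Scaling moved the median log2 difference of all genes between the deletions from 0.108 to -0.0523 at most (quantile normalization), and the share of higher calls with it: 1230 higher and 757 lower in the clrB deletion became 849 and 990 with trimmed mean factors, and 3204 and 2266 between the deletions became 2609 and 2839. Read depth is unknown, so counting error at the low Cel6A values cannot be given.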
